A study of Homo sapiens with 8 samples.

Results

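ERBB2 and 9 of its neighbours on chromosome 17q12 (MLLT6, PIP4K2B, CWC25, RPL23, LASP1, STARD3, PGAP3, MIEN1 and GRB7) were examined in ESO26, a cultured line of oesophageal adenocarcinoma cells, together with the HNF4A and GATA4 binding sites of the same segment. The 10 genes are 10 of 30755 in the expression table and had been chosen by their very high normalized counts in the control libraries, so their control levels are described and not tested. The segment was taken as chromosome 17 from 36.5 to 38.2 Mb in the coordinates of the peak lists, selected on the low fold of the peaks that cluster there. It held 38 of the 5494 HNF4A peaks and 9 of the 2607 GATA4 peaks. RNA-seq had been done on 2 libraries of ESO26 cells with siRNA knockdown of HNF4A (siHNF4A) and 2 control libraries, and ChIP-seq on 1 library for HNF4A and 1 library for Flag-tagged GATA4, pulled down with a Flag antibody. All 6 libraries come from this single line and share its genome. The labels describe the controls no further and do not say whether libraries of a group came from separate cultures, so the p-values measure the spread between these libraries, which may be technical.

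ERBB2 encodes HER2, a receptor tyrosine kinase that has no known ligand of its own and signals as a dimer with EGFR, ERBB3 or ERBB4. Its part of 17q12 is a recurrent site of DNA amplification in breast, gastric and oesophageal adenocarcinoma, in which neighbouring genes are often gained along with ERBB2 and transcribed at high levels. DNA copy number was not analysed here, and its part in the values below was not tested. HNF4A is a nuclear receptor that binds DNA in liver, gut and their tumours, and GATA4 is a zinc finger transcription factor of endodermal tissues.

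The targeted gene was lower in the knockdown. HNF4A had 4129 and 3937 normalized counts in the controls, against 1140 and 932 in the siHNF4A libraries, a mean of 25.7% of the control (adjusted p = 1.59e-05 in limma). The normalized counts summed to between 17912507 and 18613685 per library, and the 10 genes together made up 1.81% and 1.83% of that sum in the controls, against 1.68% and 1.60% in the knockdown. Of the columnar epithelial markers, 11 of 12 had values, with a sum of 95053 and 98340 in the controls, against 90704 and 88668 in the knockdown. EPCAM, KRT8, KRT19, VIL1, CDH1 and KRT18 were the most abundant of them, while KRT7 had at most 28.6 and TFF3 at most 35.01 normalized counts. EPCAM, KRT8 and KRT18 fell and KRT19 rose in the knockdown, which makes 4 of 11 markers called, where 14.1% of all tested genes were. The sum was lower in both siHNF4A libraries, but 8 of the 11 log2 fold changes were above 0 and their median was 0.072. The call of KRT19 ended without control replicate 1 (adjusted p = 0.052 in limma), siHNF4A replicate 1 (0.15) or siHNF4A replicate 2 (0.081). The summed level of the markers of squamous cells (5 of 6 with values), fibroblasts (4 of 6), endothelium (2 of 4) and leukocytes (5 of 6) was at most 238 in every library, and KRT6A was at 0 in all 4. The fibroblast sum was 210 and 132 in the controls, against 238 and 235 in the knockdown. That of leukocytes was 135 and 120 in the controls, against 80.4 and 103. No fibroblast or leukocyte marker was called. The endothelial sum was 24.6 and 15.2 in the controls against 64.0 and 47.2 in the knockdown, where VWF was called higher (without siHNF4A replicate 1, adjusted p = 0.070 in limma). The other endothelial marker with values, CDH5, had 16.0 and 8.48 in the controls, against 16.5 and 10.7 (adjusted p = 0.86). KRT14, a squamous marker with 0.64 and 2.29 in the controls, against 12.2 and 25.7 in the knockdown, was also called higher (adjusted p = 0.019), but not without siHNF4A replicate 1 (0.062) or replicate 2 (0.21). KRT5, the other squamous marker tested, had 32.6 and 12.1 in the controls, against 6.14 and 10.5 (adjusted p = 0.19), and the squamous sum overlapped between the groups. The part of these markers in the results was not tested.

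Promoters of the members are shown first because the RefSeq entries of 2 members start beside each other. The entries of ERBB2, read on the forward strand, and PGAP3, read on the reverse strand, have starts 36 bases apart. The stretch between them lies at chr17:39688058-39688093 in GRCh38.p14 and is printed on the forward strand, followed by the 250 bases before the starts of LASP1 (forward strand, chr17:38869808-38870057), the member that fell most, and of CWC25 (reverse strand, chr17:38825322-38825571), the member that rose. Capitals mark CCGGAAGT on either strand, a core that factors of the ETS family recognise, which was searched after these letters had been read.
ERBB2-PGAP3: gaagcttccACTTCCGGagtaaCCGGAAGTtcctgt
LASP1: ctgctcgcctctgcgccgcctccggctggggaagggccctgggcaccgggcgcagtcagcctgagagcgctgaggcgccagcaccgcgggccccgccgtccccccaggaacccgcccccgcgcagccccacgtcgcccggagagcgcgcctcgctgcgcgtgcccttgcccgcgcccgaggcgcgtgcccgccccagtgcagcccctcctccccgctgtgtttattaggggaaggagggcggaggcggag
CWC25: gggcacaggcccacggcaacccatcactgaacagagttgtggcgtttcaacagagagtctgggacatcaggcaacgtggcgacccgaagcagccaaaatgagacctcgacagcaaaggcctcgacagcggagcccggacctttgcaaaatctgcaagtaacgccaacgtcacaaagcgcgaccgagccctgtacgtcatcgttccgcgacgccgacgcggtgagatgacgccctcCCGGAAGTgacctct
The stretch between ERBB2 and PGAP3 holds the core 2 times, once on each strand, and both genes' windows of 250 bases therefore contain it. Of the 8 members in the promoter table, 3 (ERBB2, PGAP3 and CWC25) held CCGGAAGT, and ERBB2 and PGAP3 hold the same 2 matches. It occurs in 3.64% of 27305 promoter windows of that length, a share given for scale only, since the core was picked from these letters. None of the 8 held CAAAGTCCA, CAAAGGTCA or CAAAGTTCA, sequences that HNF4 proteins bind (0.894% of all windows), or AGATAA or TGATAA, which GATA factors bind (14.9% of all windows), on either strand. The LASP1 window is 78.0% G and C and the CWC25 window 60%. RPL23 and GRB7 were not among the 8. These matches describe letters in 1 short window per gene and say nothing of binding. Each window lies before the 1 RefSeq start used for its gene. Any other transcript start of these genes, ERBB2 included, was not examined.

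The levels of ERBB2 and its closest neighbours in gene order were high in every library. ERBB2 had 63592 and 62011 normalized counts in the controls, against 64612 and 60241 in the siHNF4A libraries, and ranked 11 of 30755 genes by its mean. One siHNF4A library was the highest and the other the lowest of the 4, so the groups overlapped. Normalized counts are not divided by transcript length, so ranks place genes in the table and do not order transcript numbers.

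GRB7, an adaptor whose SH2 domain docks on activated ERBB2, had 9284 and 9514 normalized counts in the controls, against 10652 and 9654 in the knockdown. MIEN1, a small membrane-attached protein linked to cell migration, had 9153 and 10559 in the controls, against 9336 and 9198 in the knockdown. PGAP3, which remodels the lipid of GPI anchors in the Golgi, had 7758 and 7678 in the controls, against 8476 and 8236 in the knockdown. Both siHNF4A libraries were thus above both controls for GRB7 and PGAP3, while for MIEN1 the groups overlapped. STARD3, a cholesterol carrier of late endosomes, had 7638 and 8152 in the controls, against 8595 and 7551 in the knockdown, again with overlap. ERBB2 and MIEN1 overlap each other in the RefSeq annotation, and the sources used here do not give whether strand entered the counting, so reads from the overlap cannot be assigned to either gene.

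On the other side of the segment, LASP1, an actin-binding protein of focal adhesions with a LIM and an SH3 domain, had 105142 and 111217 normalized counts in the controls, against 83712 and 81009 in the knockdown. It ranked 2 of all genes by its mean. RPL23, a protein of the large ribosomal subunit, had 85108 and 90625 in the controls, against 74635 and 71304 in the knockdown, and ranked 5. For both genes the 2 siHNF4A libraries lay under the 2 controls. RPL23 overlaps 2 small nucleolar RNA genes and 1 uncharacterised gene in RefSeq and belongs to a gene class with many processed copies, so its value is uncertain where the counting could split such reads.

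CWC25, a splicing factor of the spliceosome, had 6764 and 7352 normalized counts in the controls, against 8385 and 8648 in the knockdown, with both siHNF4A libraries above both controls. MLLT6, a PHD finger protein of chromatin known as a fusion partner of KMT2A in leukaemia, had 33985 and 31467 in the controls, against 32045 and 29694 in the knockdown, with overlap. PIP4K2B, a kinase that makes PI(4,5)P2 from PI5P, had 1126 and 1158 in the controls, against 879 and 1115 in the knockdown. PIP4K2B was the member with the lowest mean rank, 4311, and was higher than 86.0% of the genes in the table. The other 9 members were each above 99% of the genes.

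**Figure D1:**
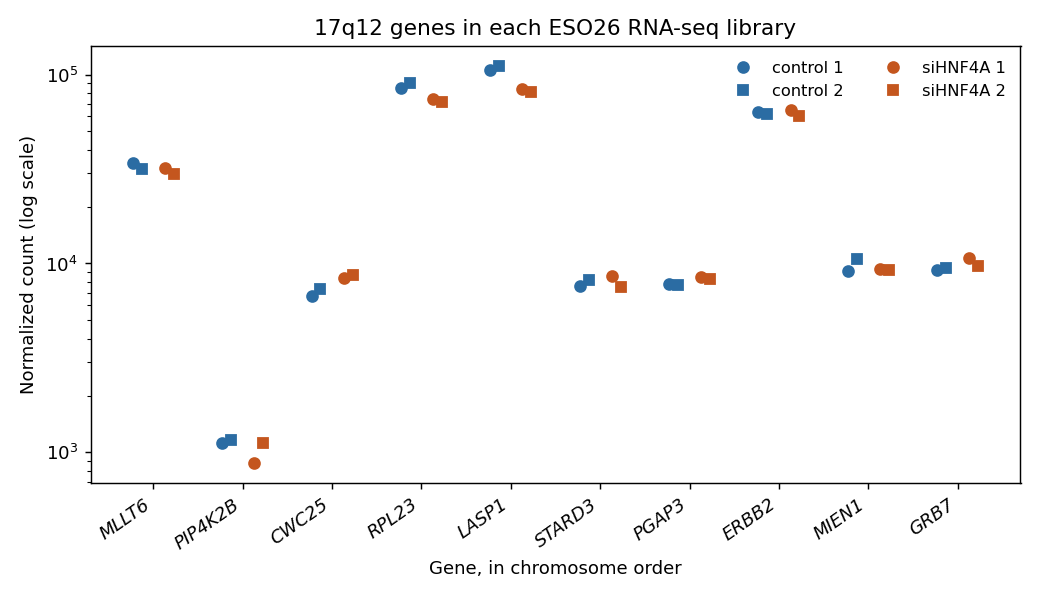
Normalized counts (log axis) of the 10 genes of 17q12 in each of the 4 RNA-seq libraries, with controls in blue, siHNF4A libraries in orange, circles for replicate 1 and squares for replicate 2. LASP1 and RPL23 show both siHNF4A points under both control points, CWC25 shows them above, and those of ERBB2 enclose the control points.

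The high values did not cover the whole gene order. RefSeq lists 9 protein-coding genes from MLLT6 to LASP1, and 7 of them were in the top 1% of the table by mean. The 3 of these that are not members are CISD3, an iron-sulfur protein of mitochondria (8609 and 9657 in the controls), PCGF2, a Polycomb ring finger protein (7503 and 8171), and PSMB3, a proteasome subunit (26109 and 28844). SPMAP1, listed under an older name, had 2.45 and 3.31 in the controls, so a gene inside the run of high values was near 0. The next 12 genes, from LASP1NB to PPP1R1B, included none in the top 1%, and 11 of them had values. In this stretch MED1, a Mediator subunit, had 1274 and 1325, and CDK12, a kinase of RNA polymerase II, had 2181 and 2065. RPL19 had 5478 and 6018 and PPP1R1B 3800 and 4051 in the controls, above 98.2% and 97.6% of the genes by mean. From STARD3 to GRB7 5 of 7 genes were in the top 1%, all of them members, while TCAP had 355 and 272 and PNMT 36.7 and 44.1 in the controls. TCAP is a protein of muscle sarcomeres and PNMT makes adrenaline in the adrenal gland. IKZF3, the gene after GRB7 and a lymphoid transcription factor, had 9.14 and 5.78. Among the 15 genes beyond GRB7 1 was in the top 1%, RAPGEFL1, with 7281 and 6467, and among the 15 before MLLT6 there was none. The members were picked for their level and the blocks were drawn after the values were seen, so these counts describe the order and carry no test.

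**Figure D2:**
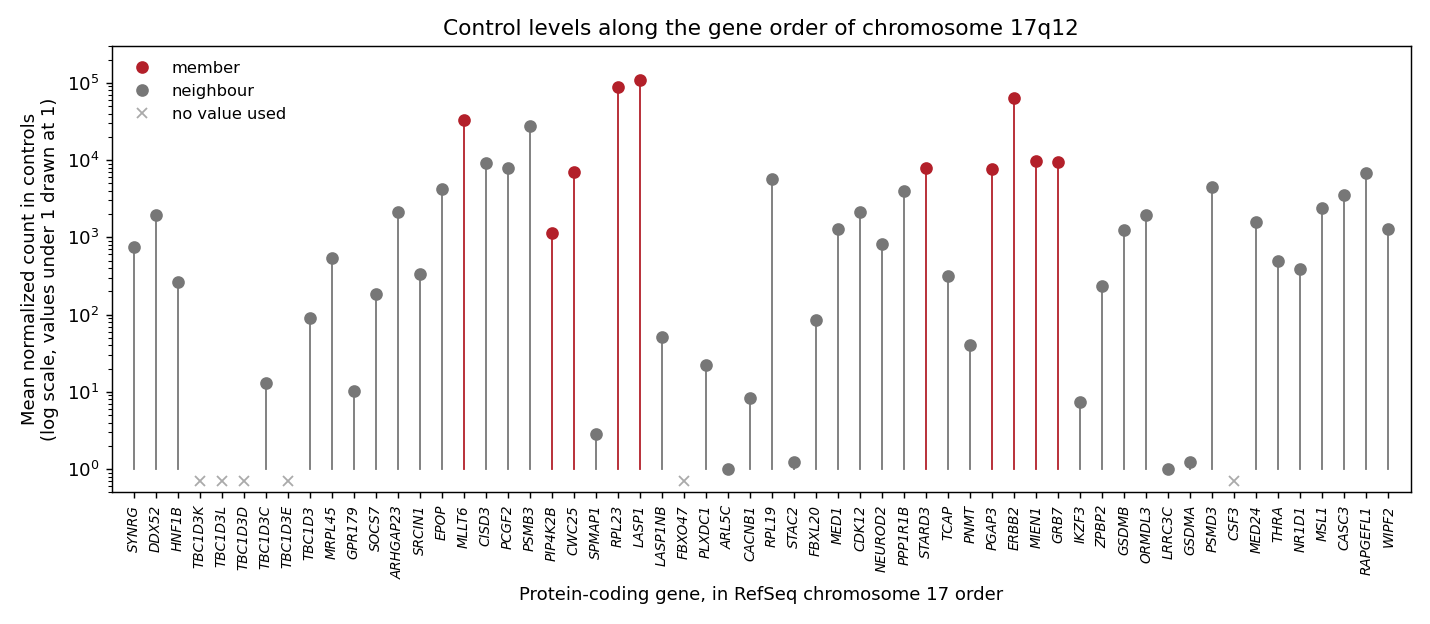
Mean normalized count in the 2 control libraries (log axis, not divided by transcript length) of each protein-coding gene from 15 before MLLT6 to 15 after GRB7, in RefSeq order, with members in red, other genes in grey and crosses where no value was used. Runs of high values from MLLT6 to LASP1 and from STARD3 to GRB7 are separated by 12 genes of which the highest, RPL19, has a mean of 5748.

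Most peaks of the same segment had more fragments behind them than most peaks of either list. The fold and the p of each peak are the authors' deposited values, and the submitters' processing notes name MACS2, which computes a fold as (pileup + 1)/(local background + 1) and a p from a Poisson distribution with that background. Solving these for each peak gave a whole pileup within 0.01 in −log10 p for 5494 of 5494 HNF4A peaks and 2607 of 2607 GATA4 peaks. The local background is the number of fragments expected at the summit without binding. Whether it came from a control library or from the ChIP library itself is not given in the sources used here. Fold and p helped to choose the segment, so the following values carry no test, and each list comes from 1 library.

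Outside the segment the median local background was 1.64 fragments for HNF4A peaks and 1.09 for GATA4 peaks. Inside, it was 16.6 over the 38 HNF4A peaks and 11.8 over the 9 GATA4 peaks. A background of at least 5 fragments, a limit set after the values were seen, was found for 36 of the 38 HNF4A peaks against 1.03% of the rest of the list, and for 8 of the 9 GATA4 peaks against 2%. Summit pileups followed, with a median of 65 against 16 for HNF4A and 70 against 15 for GATA4. The median fold was lower inside, 3.69 against 6.32 for HNF4A and 5.73 against 7.30 for GATA4. Of the HNF4A peaks in the segment 21 had a fold under 4, which is 55.3%, against 3.26% elsewhere.

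Peaks of high background formed 2 stretches. The first ran from 36761011 to 37132427, over 371 kb, with 23 HNF4A peaks at a median background of 12.7 (range 10.2 to 24.6) and 4 GATA4 peaks at 9.64 (8.21 to 13.7). The second ran from 37788270 to 37980348, over 192 kb, with 13 HNF4A peaks at a median of 21.3 (16.6 to 27.1) and 4 GATA4 peaks at 12.5 (11.8 to 16.4). Relative to the median of peaks elsewhere, the background was 7.73 times as high in the first stretch and 13.0 times in the second for HNF4A, and 8.81 and 11.4 times for GATA4. Over the 656 kb between them lay 1 HNF4A peak, from 37310868 to 37311261, with a background of 1.17 and a pileup of 9, and no GATA4 peak. That background is the lowest and the most frequent of the HNF4A list, at 1075 peaks, as 0.791 is for 515 GATA4 peaks. Such values may be a floor, so the ratios above are of computed backgrounds and not of measured coverage. After the second stretch the background fell to 1.72 at the HNF4A peak from 38072629 to 38073061 and to 1.09 at the GATA4 peak from 38136884 to 38137165. The files give peaks in hg19, per the submitters' processing notes, and the gene table is of GRCh38, so peaks were not assigned to genes.

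**Figure D3:**
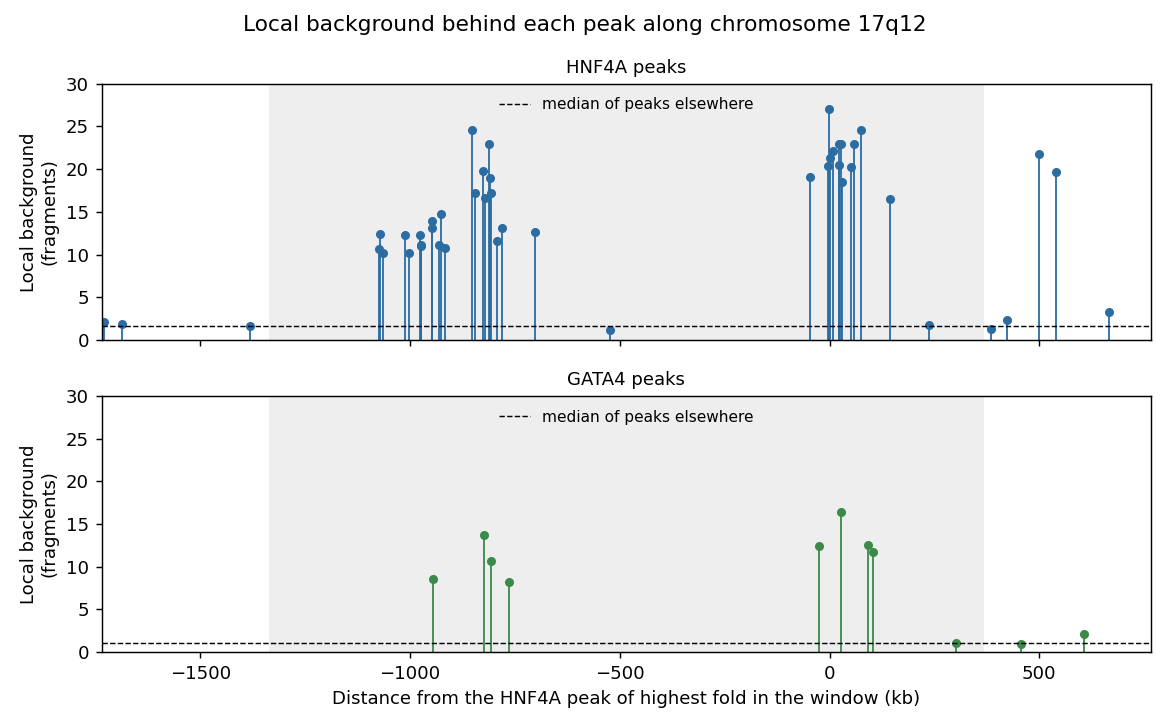
Local background in fragments of each HNF4A peak (upper panel) and GATA4 peak (lower panel), against the distance in kb from the HNF4A peak of highest fold in the segment, with the segment shaded in grey. The dashed lines mark the median of peaks elsewhere, 1.64 and 1.09, and inside the shading the peaks lie above them in 2 stretches of 371 and 192 kb, with a single HNF4A peak of 1.17 between.

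The nearest peaks outside the segment had ordinary backgrounds. For HNF4A these were the peak from 36452429 to 36453073 with a background of 1.64 and the peak from 38218670 to 38219139 with 1.31, and for GATA4 the peaks from 36070225 to 36070785 with 1.31 and from 38290495 to 38290875 with 1.02. Further along, 2 HNF4A peaks from 38332486 to 38333946 and from 38375270 to 38375633 again had backgrounds of 21.7 and 19.7. Between 39926217 and 39930109 lay 2 HNF4A peaks with 30.1 and 30.3 and 1 GATA4 peak with 19.4. Such clusters also lay on other chromosomes, some with fewer fragments and some with far more. In the HNF4A list the megabase bin with the most peaks of at least 5 there, on chromosome 12, held 9 at a median background of 6.56, and a bin on chromosome 10 held 4 at 356. In the GATA4 list bins on chromosomes 10, 16 and 11 held 12, 7 and 5 such peaks at medians of 201.3, 222.1 and 107.2. The segment was thus not the highest in either list. These GATA4 peaks lay from 42384963 to 42600324, 46391207 to 46407041 and 51579424 to 51591302, and the HNF4A peaks on chromosome 10 from 42385014 to 42597204. The part of repeated sequence in these backgrounds was not tested, so these bins may not be comparable with the segment.

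The HNF4A peak of highest fold in the segment, from 37834234 to 37835353, had a fold of 10.5, a pileup of 234 and a −log10 q of 147. By q it ranked 3 of 5494, by fold 537. Next by fold came the peak from 37026803 to 37028709, with a fold of 9.54 over a pileup of 173, ranks 9 by q and 759 by fold, after the peak from 38072629 in ordinary background, which had a fold of 9.56. The weakest by fold, from 37856341 to 37856839, had 2.29 over a pileup of 54. The first peak of the segment, from 36761011 to 36761328, had a fold of 2.91. Fold and q ranked the same peaks very differently here. Between peaks of equal fold, the MACS2 formula gives the larger −log10 q to the peak of larger background.

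The GATA4 peak of highest fold in the segment, from 37938431 to 37939352, had a fold of 17.9, a pileup of 228 and a −log10 q of 193. It ranked 1 of 2607 by q and 54 by fold. The peaks from 36889080 to 36889618 and from 37027618 to 37028120 followed with folds of 8.97 and 8.81 and pileups of 85 and 102. The lowest fold was 2.73, from 37009788 to 37010368. The HNF4A list has no peak overlapping the strongest GATA4 peak of the segment.

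In the segment 3 GATA4 peaks overlapped an HNF4A peak by at least 1 base, which is 33.3% of its GATA4 peaks and 7.89% of its HNF4A peaks, against 17.4% and 8.25% over the whole lists. With 9 and 38 peaks these shares are coarse. The shared sites were the GATA4 peak from 37009788 to 37010368 within the HNF4A peak from 37009573 to 37010402 (folds 2.73 and 3.03), the GATA4 peak from 37027618 to 37028120 within the HNF4A peak from 37026803 to 37028709 (8.81 and 9.54), and the GATA4 peak from 37862120 to 37862446 within the HNF4A peak from 37861969 to 37862613 (3.33 and 3.003).

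**Figure D4:**
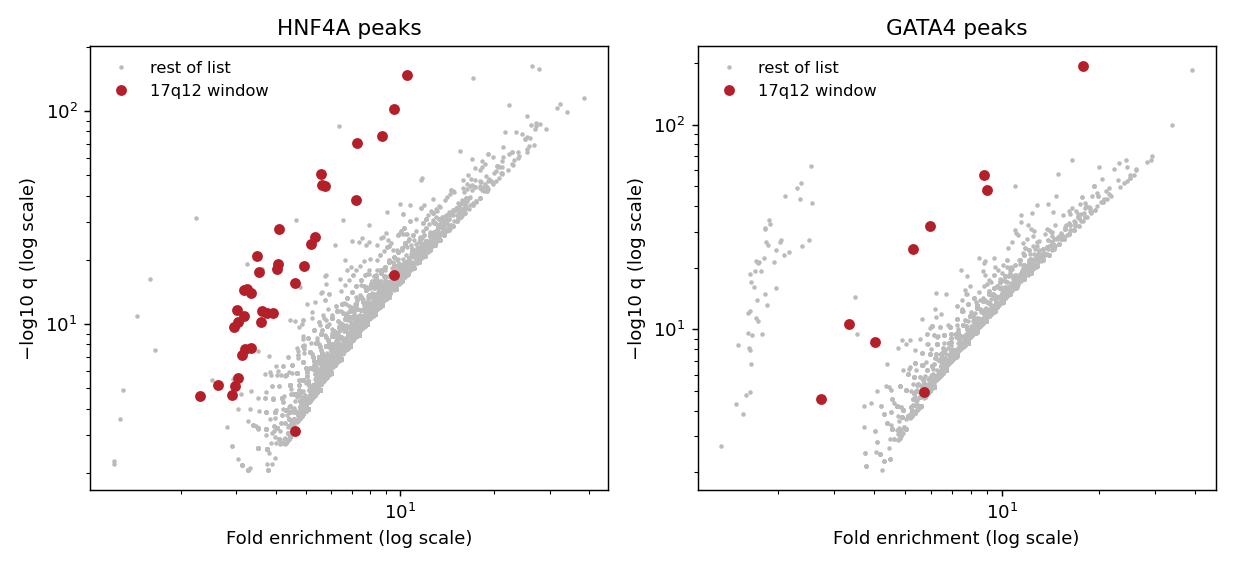
Deposited −log10 q against fold enrichment (both axes logarithmic) for HNF4A peaks (left) and GATA4 peaks (right), with peaks of the 17q12 segment in red and all others in grey. The 36 HNF4A and 8 GATA4 peaks of high background lie above or to the left of the main band, where the formula places peaks of large background, and the strongest are at −log10 q of 147 and 193.

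To ask whether these genes changed when HNF4A was lowered, siHNF4A and control libraries were compared with limma on log2(normalized count + 1), with the 15577 genes whose mean reached 10. The control libraries that chose the members also enter this comparison. In bulk RNA, fewer cells of a type and less RNA per cell cannot be told apart. Of the 10 members, all of which were tested, 3 had an adjusted p under 0.05, 1 higher and 2 lower. Of all tested genes 14.1% were called (6.02% higher and 8.11% lower). With the filter raised to a mean of at least 50, 2381 of 12111 genes were called, a larger share. The share among genes as high as the members was not computed. The same limit applies wherever the 14.1% is set beside highly expressed genes. The share of the 10 whose groups did not overlap was 6 of 10, close to the 57% of all tested genes. Over all genes 938 were called higher and 1264 lower, and 1136 and 1009 after rescaling to equal totals. The members' median log2 fold change was -0.047, beside -0.0073 over all tested genes and -0.054 over the 4537 with a mean of at least 1000.

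LASP1 fell furthest among the members, with 108179.7 ± 4296 normalized counts in controls and 82361 ± 1911 in siHNF4A libraries (SD, n = 2 each). Its log2 fold change was -0.39 (SE 0.045, adjusted p = 0.000683 in limma). RPL23 fell as well, with 87867 ± 3901 and 72969.6 ± 2355, a log2 fold change of -0.27 (adjusted p = 0.0057 in limma). CWC25 had 7058 ± 416 and 8516 ± 186 and rose, with a log2 fold change of 0.27 (adjusted p = 0.015 in limma). CWC25 and the genes 2 and 3 places after it in the same run of high values thus moved in opposite directions. Without the trend between variance and level none of the 3 passed the threshold, with adjusted p of 0.14 for LASP1, 0.21 for RPL23 and 0.21 for CWC25 in limma. In that setting no gene was called, not even HNF4A (adjusted p = 0.092 in limma), so it does not set these 3 calls apart from others. Without the filter on low values the call of CWC25 ended (0.080). Leaving out siHNF4A replicate 2 left LASP1 alone (adjusted p = 0.017), with 0.089 for RPL23 and 0.11 for CWC25, and leaving out siHNF4A replicate 1 ended the call of CWC25 (0.061). Where 1 library of a group is left, the spread comes from the other group alone and the lone library is assumed to vary like it, so these p-values are a weak guide to which calls hold.

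ERBB2 had a log2 fold change of -0.0094 with a 95% interval from -0.12 to 0.096 (adjusted p = 0.92 in limma), so that a change beyond about these bounds in either direction lies outside the interval. Its sign flipped to 0.030 with equal totals, and it was -0.11 after quantile normalization (adjusted p = 0.22). MLLT6 (-0.084, interval -0.21 to 0.041), MIEN1 (-0.085, -0.24 to 0.068) and STARD3 (0.030, -0.13 to 0.19) also had intervals that held 0. The sign of MIEN1 turned without control replicate 2 (0.018), and it was -0.19 without control replicate 1. That of STARD3 turned without control replicate 1 (-0.017) or siHNF4A replicate 1 (-0.064). PIP4K2B had -0.21 with an interval from -0.46 to 0.044, and its value rests largely on 1 library: it was -0.034 without siHNF4A replicate 1 and -0.38 without replicate 2. GRB7 (0.11, interval -0.025 to 0.24) and PGAP3 (0.11, -0.0032 to 0.23) were not past the threshold, with adjusted p of 0.26 and 0.18, but were after quantile normalization (0.044 and 0.036 in limma). The value of GRB7 was 0.039 without siHNF4A replicate 1 and 0.18 without replicate 2. That of MLLT6 was -0.029 without control replicate 1 or siHNF4A replicate 2, and -0.14 without control replicate 2 or siHNF4A replicate 1. PGAP3 and ERBB2, whose RefSeq starts used here lie 36 bases apart, had log2 fold changes of 0.11 and -0.0094 in the same libraries. The difference between them was not tested.

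The log2 ratio of LASP1 to ERBB2 within a library was 0.73 and 0.84 in the controls, against 0.37 and 0.43 in the knockdown. The log2 ratio of GRB7 to ERBB2 was -2.78 and -2.70 in the controls, against -2.60 and -2.64 in the knockdown. In neither ratio did the groups overlap. Of the 9 members set against ERBB2 in this way 6 did not overlap, and PIP4K2B, STARD3 and MIEN1 did. Over all other tested genes 53.2% did not overlap, so 6 of 9 is near that share. The ratios are given as values and were not tested.

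**Figure D5:**
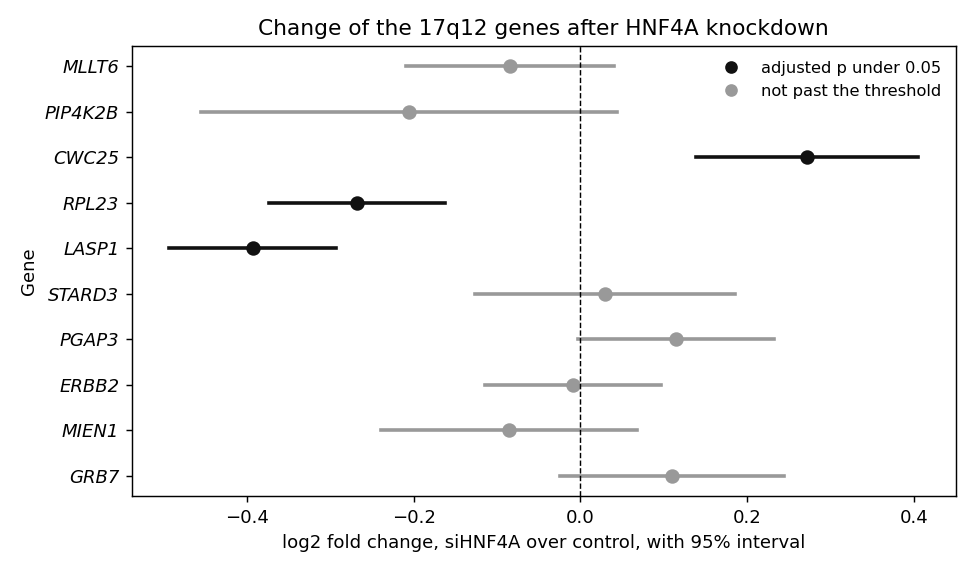
Log2 fold change of each of the 10 genes in siHNF4A over control libraries (points) with its 95% interval from limma (bars), in chromosome order, black where the adjusted p was under 0.05 and grey otherwise. LASP1 at -0.39 and RPL23 at -0.27 lie left of 0, CWC25 at 0.27 lies right of it, and the bar of ERBB2 spans -0.12 to 0.096.

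Neighbours that are no members changed as well. CISD3, the gene after MLLT6, fell by 0.49 on the log2 scale (adjusted p = 0.0015 in limma), with 9133 ± 741 normalized counts in controls and 6499 ± 108 in siHNF4A libraries (SD, n = 2), and PSMB3 and PCGF2 beside it were not called. EPOP, a partner of Polycomb repressive complexes just before MLLT6, fell by 0.45 on the log2 scale (adjusted p = 0.0033 in limma), and SRCIN1, the gene before it, rose by 0.62 (adjusted p = 0.023). Between the runs, RPL19, a protein of the large ribosomal subunit like RPL23, fell by 0.23 (adjusted p = 0.042), and PPP1R1B, a phosphatase inhibitor next to STARD3, rose by 0.30 (adjusted p = 0.011). The call of RPL19 ended with equal totals (adjusted p = 0.062 in limma), after quantile normalization (0.078) and without control replicate 2 (0.19), siHNF4A replicate 1 (0.11) or siHNF4A replicate 2 (0.21). From MLLT6 to LASP1 4 of 8 tested genes were called, 1 higher and 3 lower, and from STARD3 to GRB7 0 of 7, beside the 14.1% of all tested genes. Of the 10 tested genes among the 15 before MLLT6 2 were called, and of the 8 tested between the runs 2. These blocks were drawn after the values were seen, and their difference was not tested. Of the 11 tested genes among the 15 beyond GRB7 5 were called, again beside 14.1% of all tested genes. GSDMB, CASC3 and RAPGEFL1 rose by 0.41, 0.22 and 0.33, and ZPBP2 and THRA fell by 0.76 and 0.63 on the log2 scale. The call of CASC3 ended whichever library was left out (adjusted p from 0.056 to 0.15 in limma). Without siHNF4A replicate 1 the calls of RAPGEFL1 (0.13), ZPBP2 (0.061), THRA (0.061), SRCIN1 (0.16) and PPP1R1B (0.052) ended too, and that of PPP1R1B also without siHNF4A replicate 2 (0.077).

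The other ERBB receptors and their ligands were read from the same libraries. ERBB3, the kinase-poor partner that couples ERBB2 to PI3K, had 2428 and 2517 normalized counts in the controls, against 1761 and 1778 in the knockdown. It fell by 0.48 on the log2 scale (limma, adjusted p = 0.0019) and was the 1 receptor called of 3 tested, beside 14.1% of all tested genes. EGFR had 2291 and 2186 in the controls, against 2501 and 2448 in the knockdown (log2 fold change 0.14, adjusted p = 0.19). ERBB4 was under the filter, with 0 and 1.07 in the controls, against 29.96 and 1.20 in the knockdown, so its mean there rests on 1 library. ERBB3 passed the threshold and ERBB2 did not, and the difference between them was not tested.

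Among the 11 ligands 9 had values and 7 were tested, and 1 was called, a share like the 14.1% of all tested genes. AREG, amphiregulin, an EGFR ligand, fell from 776 and 798 to 415 and 468 normalized counts, a log2 fold change of -0.84 (adjusted p = 0.0011 in limma). TGFA, BTC, HBEGF, EREG, EGF and NRG4 were not past the threshold, with log2 fold changes between -0.29 for EGF and 0.69 for NRG4. NRG4 rested on 1 library, with 62.5 and 142 in the knockdown against 65.6 and 51.5 in the controls. EPGN and NRG2 were under the filter, and NRG1 and NRG3 were not analysed here.

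Of 30 genes of ERBB2 signalling and its control, all tested, 3 were called, beside 14.1% of all tested genes, and the median log2 fold change was 0.044. AKT1, a kinase downstream of PI3K, rose by 0.35 (adjusted p = 0.0071 in limma) and HSP90AA1, a chaperone that stabilises ERBB2, rose by 0.23 (adjusted p = 0.0072). PIK3CB, a catalytic subunit of PI3K, fell by 0.30 on the log2 scale (adjusted p = 0.026). Without siHNF4A replicate 1 none of the 3 passed the threshold (adjusted p of 0.066, 0.079 and 0.14 in limma). HSP90AA1 also lost its call without siHNF4A replicate 2 (0.090), as did PIK3CB (0.078), and PIK3CB without control replicate 2 (0.11). The adaptors GRB2 and SHC1 had log2 fold changes of -0.10 and -0.0015 and were not called. HSP90AB1, listed beside HSP90AA1, went the other way with -0.14 and was not called (adjusted p = 0.0585 in limma). Among 8 regulators of ERBB2 transcription 7 were tested and 1 was called: EHF, an ETS factor, rose by 0.35 (adjusted p = 0.0032 in limma). TFAP2A had 0.36 with an adjusted p of 0.051, GATA4 had -0.45 with 0.071, and ESR1 was listed at 0 in all 4 libraries. Among the relatives of single members, GRB10 and GRB14 for GRB7, STARD3NL, STARD4 and STARD5 for STARD3, PIP4K2A and PIP4K2C for PIP4K2B, MLLT10 for MLLT6 and NEBL for LASP1, none was called in limma, and STAR was under the filter.

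The genes whose pattern over the 4 libraries lay nearest to that of ERBB2, of 4536 others with a mean of at least 1000, were ERGIC1, B3GALNT2, E2F4, SETD1B and NFATC2IP. Their distances from ERBB2, between values centred on each gene's mean on the log2 scale, were 0.0063, 0.013, 0.017, 0.023 and 0.028. None of the 5 is a member, and 4 libraries leave little to tell such patterns apart.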

How the data were processed

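The table of normalized counts, a signal that the authors deposited after a normalization not given in the sources used here, holds 4 libraries of ESO26 cells. Among genes above 0 in only 1 library, 54.8% to 66.4% had whole multiples of a step derived from the most frequent value (tolerance 2% of the step), so whole reads were not recovered, no count model was used and the depth is unknown. Per the submitters' processing notes, Trim Galore, Bowtie, Bowtie2, Picard and MACS2 were used and the build is hg19. Libraries were grouped by title. Expression was fitted with limma 3.58.1 in R 4.3.3 (eBayes with a trend) on log2(normalized count + 1), with Benjamini-Hochberg adjustment over the genes whose mean reached 10. The script was tested on simulated data. The deposited peak lists give a fold (ratio), −log10 p, −log10 q and a score for each peak, and overlap meant at least 1 shared base. Pileup and local background were computed from fold and p with scipy 1.17.1. The members and lists were chosen with earlier results of these data known. Named are the members, HNF4A, GATA4, the genes from 15 before MLLT6 to 15 after GRB7, ERBB receptors and ligands, called genes of the lists (up to 5), the 5 genes nearest to ERBB2 in pattern and, in each peak list, the 3 peaks of highest fold, the first and last, their nearest outside and shared ones. Others were chosen after their values were seen. Gene order and promoters are from RefSeq, GRCh38.p14, with 8 of 10 members in its promoter table. The 2 4C libraries were not analysed here. Libraries with the same number were not treated as pairs: their deviations from the group means had a Pearson r of -0.019 across 15577 genes.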

Additional observations from a re-analysis of the deposited data

How the results depend on the processing

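The 3 calls among the members became 5 after quantile normalization, with PGAP3 and GRB7 added, and 0 without the variance trend, where 3 members had an unadjusted p under 0.05 in limma. They became 2 without the filter, where CWC25 was lost, and between 1 and 3 when 1 library was left out. The log2 fold change of ERBB2 changed sign to 0.030 with equal totals and 0.027 with totals computed without the members, and lay between -0.060 and 0.041 when 1 library was left out. That of MIEN1 became 0.0050 after quantile normalization and lay between -0.19 and 0.018 with 1 library left out, and that of STARD3 lay between -0.064 and 0.12. The cause was not tested. With the replicate block 3 members were called and ERBB2 stayed at -0.0094, and libraries of the same number were not treated as pairs. Over all genes the block gave 2428 calls in place of 2202, no filter 726, no trend 0 (3524 with an unadjusted p under 0.05), and 1 library left out between 1013 and 2449. Of the 23 called genes named outside the members 23 lost their call without the trend and 11 without the filter, and 13 lost it when at least 1 of the 4 libraries was left out (25 of 92 values). The segment held 35 HNF4A and 7 GATA4 peaks at a −log10 q of at least 5, 38 and 8 when narrowed and 41 and 10 when widened by 100 kb on each side, and 2 shared peaks at a reciprocal overlap of 50%. The unknown depth leaves expression values without counting intervals, and 1 library per peak list leaves peaks without a replicate check.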
